A study of Homo sapiens with 6 samples.

Results

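The genes described here encode the semaphorins, ephrins, netrins and Slit proteins that steer growing axons and migrating cells, and their plexin, neuropilin, Eph and Robo receptors. They were chosen by symbol alone: SEMA, EFNA, EFNB, EPHA, EPHB, NRP, ROBO, SLIT or NTN followed by digits and optional letters, or PLXN followed by a letter and a digit. The array measured 14232 genes through a probe set annotated to a single symbol, and 57 of them met this rule, 31 of them ligands and 26 receptors. They comprised 19 semaphorins, 8 plexins, 2 neuropilins, 4 ephrin-A and 3 ephrin-B ligands, 9 EphA and 4 EphB receptors, 4 netrins, 1 Slit and 3 Robo receptors. A probe set here is the group of probes summarised to a single value for a transcript, and where a gene had several such probe sets, the one with the highest mean over the 6 arrays was used.

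Expression had been profiled on 6 arrays of the human line MO3.13, which the submitters call an oligodendroglioma line. The 3 treated arrays came from cells given recombinant mouse Klotho at 0.4 µg/mL for 3.5 h in DMEM without serum. For the 3 control arrays the labels describe growth in DMEM with 10% fetal bovine serum and no further step. Klotho and the removal of serum therefore cannot be told apart in any difference below. The line is known as a fusion of a human rhabdomyosarcoma line with oligodendrocytes, so it models the glial cell only in part, and the Klotho protein was that of another species. Of 9 oligodendrocyte lineage markers with a probe set of their own, the early myelin enzyme gene CNP was above the upper quartile of signal over all probe sets, MOG was below the lower quartile, and the other 7, with OLIG1, OLIG2, SOX10 and MBP among them, lay between the lower quartile and the median. Of 9 skeletal muscle and rhabdomyosarcoma markers, 6 were above the upper quartile, among them MYOD1, MYOG and DES. The mean of the muscle markers was 8.07 to 8.09 on the control arrays and 8.02 to 8.07 on the treated arrays (log2), and that of the oligodendrocyte markers 5.80 to 5.90 and 5.78 to 6.00. The muscle markers DES (-0.27) and CDH15 (-0.16) were lower on all 3 treated arrays than on any control array. Such separation was seen for 5.3% of all genes. Of the 9 muscle markers 5 had a lower and 4 a higher mean in treated cells, and of the 9 oligodendrocyte markers 2 and 7. Of all genes 62.6% were lower. No marker of these lists passed the adjusted threshold in limma, and their part in the values below was not tested.

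Guidance cues act as pairs of ligand and receptor at the surface of cells. Secreted class 3 semaphorins bind a neuropilin, which has little signalling capacity of its own, and the plexin beside it passes the signal to small GTPases and the actin cytoskeleton; membrane-bound semaphorins mostly bind plexins directly. Ephrins are themselves anchored in the membrane, so that Eph receptor tyrosine kinases signal on contact, in both cells at once, whereas Slits repel through Robo receptors and netrins attract or repel through DCC, neogenin and UNC5 receptors. In the oligodendrocyte lineage such cues guide the migration of precursors, and semaphorin 3A is known to hold back their differentiation.

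No axon guidance gene passed the test between treated and control cells. Of the 57 genes, 0 had a limma adjusted p under 0.05, and the share among all genes was also 0%. The smallest adjusted p among the 57 was 0.998. At an unadjusted p under 0.05 there was 1 gene, SEMA6B, lower in treated cells. That is 1.75% of the 57, against 2.07% of all genes in either direction and 1.11% of all genes that were lower. The share is near the background and is not a result about these genes. Separate cultures are not mentioned in the labels, and the p-values measure only the spread between these arrays, which may be technical.

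**Figure D1:**
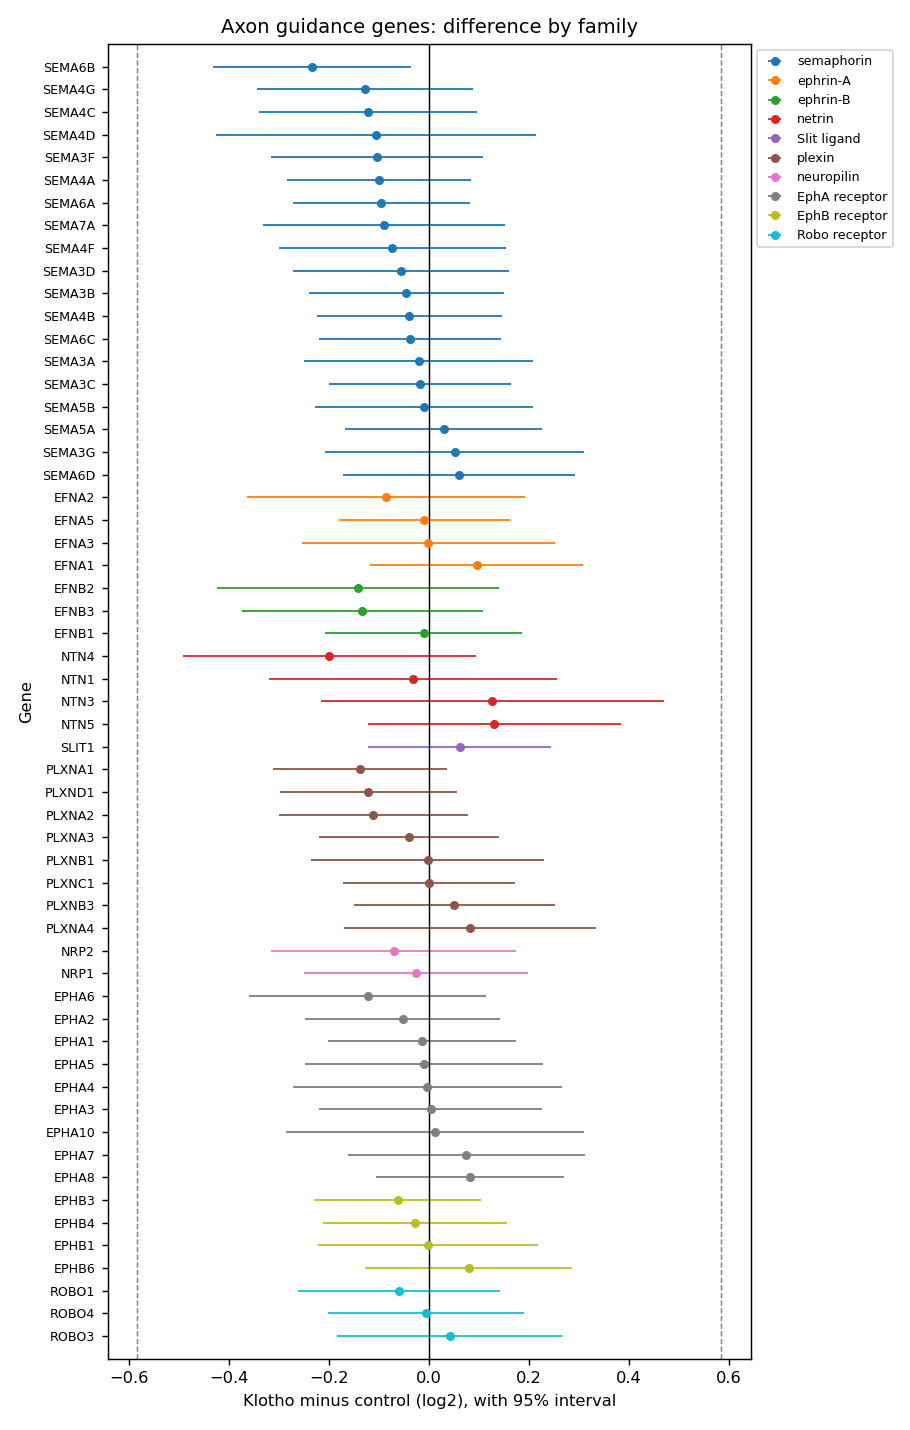
Difference between Klotho-treated and control cells on the log2 scale (horizontal axis) for each of the 57 genes (vertical axis), grouped and coloured by family. Points are fitted differences of 3 against 3 arrays, bars are 95% intervals from limma, and dashed lines mark a 1.5-fold change in either direction; all 57 bars lie between the dashed lines and SEMA6B is the only bar that does not cross 0.

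On the probe set chosen for each gene, the 95% interval of all 57 axon guidance genes excluded a change of 1.5-fold or more, up or down, against 91.7% of all genes, and for 55 to 57 of them under the alternatives that kept all 57. For PLXNA2 the bound did not hold on its other probe set, whose values are given with the plexins. A narrower bound of 1.25-fold held for 44 of the 57 (77.2%), against 45.7% of all genes. Each interval covers the signal of its own gene, with no correction for the number of genes. The largest negative difference was -0.24 (SEMA6B) and the largest positive one 0.13 (NTN5). The interval was widest for NTN3, from -0.22 to 0.47, and narrowest for EPHB3, from -0.23 to 0.10. The SD within a group had a median of 0.09 over the 57, with a range of 0.02 to 0.20, against a median of 0.12 over all genes.

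The brightness of a probe set depends on its probes as well as on the transcript. Its place among all probe sets, here and for the cell markers above, therefore does not rank genes by transcript amount. Over all probe sets the lower quartile of mean signal was 4.70, the median 6.40 and the upper quartile 8.04. Of the axon guidance probe sets 5 were below the lower quartile, 30 between it and the median, 16 between the median and the upper quartile, and 6 above. For all 14232 genes these counts were 2923, 3712, 4100 and 3497, so bright probe sets were a smaller share of the 57. The part of signal level in the width of the intervals was not tested. The 6 bright ones belonged to the secreted semaphorins SEMA3A and SEMA3C, the transmembrane semaphorin SEMA6A, the receptor tyrosine kinases EPHA2 and EPHA7, and the Slit receptor ROBO1. The 5 dim ones were those of NTN4, EPHA5, EPHA6, SEMA6D and PLXNC1. No detection calls were used, so the intervals describe the signal and may miss a change in the transcript. This limit is plainest for these 5. How far the 30 between the lower quartile and the median stood above background was not tested either.

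Semaphorins were the largest family. SEMA6B, a transmembrane semaphorin that binds class A plexins, read 8.05, 7.86 and 7.97 on the control arrays and 7.71, 7.70 and 7.77 on the treated arrays (log2). All 3 treated values were below the lowest control value. The difference was -0.24 (SE 0.08, 95% interval -0.43 to -0.04), with a limma adjusted p of 0.998. With quantile normalization of the deposited values it was -0.17, and the groups still did not overlap. In limma across all probe sets, the unadjusted p was above 0.05 with the replicate block (0.0659) and without any of 4 arrays taken singly: control array 1 (0.0733), control array 3 (0.0733), treated array 1 (0.07) or treated array 2 (0.0843).

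The 6 class 3 semaphorins, the secreted ligands of neuropilins, differed by between -0.10 (SEMA3F) and 0.05 (SEMA3G), with a median of -0.03. SEMA3A, the founding repellent of growth cones, has one of the brightest probe sets on the array, at the 97.9th percentile. It read 11.65, 11.58 and 11.49 on the control arrays and 11.48, 11.48 and 11.69 on the treated arrays. The groups overlapped, with treated array 3 the highest of the 6, and the 95% interval of the difference ran from -0.25 to 0.21. SEMA3C, which acts in neural crest and vascular patterning, measured 9.84 ± 0.05 in control and 9.82 ± 0.05 in treated cells (SD, n = 3). SEMA3D, with no protein-coding gene between it and SEMA3A on chromosome 7 in the RefSeq order, measured 7.73 ± 0.10 and 7.67 ± 0.08. SEMA3B differed by -0.05.

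All 6 class 4 semaphorins, which are membrane-bound and bind plexin-B and other receptors, had a lower mean in treated cells, with a median difference of -0.10, and 0 of them passed. With each array centred on its median, 5 of the 6 were lower, with a median of -0.05. With quantile normalization and with cyclic loess all 6 were lower, with medians of -0.07 and -0.08. Of all genes 62.6% were lower as deposited, and 42.7%, 46.8% and 50.3% under these scalings in turn. Class 4 was the only semaphorin class followed under other scalings, so these counts do not set it apart from the other classes. SEMA4A, known for its roles in immune cells and photoreceptors, read 5.47, 5.44 and 5.40 on the control arrays and 5.40, 5.35 and 5.27 on the treated arrays. The highest treated and the lowest control value agree to the second decimal, so the groups are separated by almost nothing. SEMA4G (-0.13), SEMA4C (-0.12), SEMA4D (-0.11), SEMA4F (-0.07) and SEMA4B (-0.04) had groups that overlapped. SEMA4D, the plexin-B1 ligand CD100, had the largest SD of the semaphorins, 0.18, with 5.13 on control array 2 against 4.75 and 4.80 on the other control arrays.

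Among the remaining semaphorins, SEMA6A, a ligand of PLXNA2 and PLXNA4, measured 8.17 ± 0.04 in control and 8.08 ± 0.04 in treated cells, with SEMA6C at -0.04 and SEMA6D at 0.06. The class 5 semaphorins SEMA5A and SEMA5B, which carry thrombospondin repeats, differed by 0.03 and -0.01. SEMA7A, which is held in the membrane by a lipid anchor, differed by -0.09. Over all 19 semaphorins 16 were lower (84.2%) and 3 higher as deposited, with a median of -0.06. Median centring left 10 lower and 9 higher, quantile normalization 12 and 7, and cyclic loess 11 and 8. The lower share of all genes was 62.6% as deposited, then 42.7%, 46.8% and 50.3%. The semaphorin share was thus above that of all genes each time, and this difference was not tested.

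The ephrin-A ligands, which are tied to the membrane by a lipid anchor, differed little. EFNA1 read 5.39, 5.35 and 5.32 on the control arrays and 5.33, 5.57 and 5.44 on the treated arrays, a difference of 0.09 (95% interval -0.12 to 0.31). EFNA5, a repellent of retinal axons, measured 7.99 ± 0.03 in control and 7.98 ± 0.03 in treated cells (SD, n = 3). EFNA2 differed by -0.09, and EFNA3, which lies next to EFNA1 on chromosome 1, by -0.0018. The transmembrane ephrin-B ligands EFNB1, EFNB2 and EFNB3 differed by -0.01, -0.14 and -0.13, and their intervals all included 0. EFNB2, the partner of EPHB4 in separating arteries from veins, read 5.48, 5.11 and 5.28 on the control arrays and 5.24, 5.16 and 5.04 on the treated arrays. The EFNB2 difference was -0.05 without control array 1 and -0.23 without control array 2, the highest and lowest controls. That of EFNB3 was -0.04 without treated array 3.

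Netrins had the widest spread of the families. NTN1, the classic attractant of commissural axons, read 7.65, 7.51 and 7.87 on the control arrays and 7.52, 7.75 and 7.67 on the treated arrays, so the treated values lay inside the control range. NTN3 and NTN5 differed by 0.13 each. NTN4, a netrin of basement membranes, differed by -0.20 (95% interval -0.49 to 0.09) on a very dim probe set, at the 1.63rd percentile of signal. SLIT1, the only Slit with a probe set of its own, measured 5.78 ± 0.03 in control and 5.84 ± 0.07 in treated cells.

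Plexins, the signalling receptors of semaphorins, held 3 of the 6 genes whose treated and control arrays did not overlap as deposited, all 3 lower in treated cells. Such separation was seen for 7.89% of all genes, 5.3% of all genes being lower, and it was lost for all 3 plexins under each of the other 3 scalings between arrays. The 100 bases before the annotated start of these 3 genes are shown as context for these 3 receptors. The sequences were taken from RefSeq (GRCh38.p14) and are written in the direction of the gene. They come from chr3:126983015-126983114 (PLXNA1, plus strand), chr1:208244385-208244484 (PLXNA2, minus strand) and chr3:129606677-129606776 (PLXND1, minus strand), and capitals mark the GC box GGGCGG on either strand.
PLXNA1: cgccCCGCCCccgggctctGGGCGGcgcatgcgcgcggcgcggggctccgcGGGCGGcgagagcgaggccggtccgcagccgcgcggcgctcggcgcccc
PLXNA2: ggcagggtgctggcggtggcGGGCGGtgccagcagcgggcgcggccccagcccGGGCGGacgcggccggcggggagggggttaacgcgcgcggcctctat
PLXND1: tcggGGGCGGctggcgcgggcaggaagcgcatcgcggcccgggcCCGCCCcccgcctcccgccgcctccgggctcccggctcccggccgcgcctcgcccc

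PLXNA1 holds 3 GC boxes in this window and PLXNA2 and PLXND1 hold 2 each, with 82% to 89% G and C, and none of them holds a TATAAA on either strand. A RefSeq promoter was found for 49 of the 57 axon guidance genes, 78 promoters in all. Of these, 64.1% held at least 1 GC box in the 100 bases before the start, against 40.5% of the promoters of protein-coding genes and 31.3% of all promoters. The median G and C content of these windows was 68.5% for the axon guidance genes, 65% for protein-coding genes and 60% for all promoters, and its part in the matches was not tested. The TATAAA letters were found in 2.56% of the axon guidance promoters and 4.95% of those of protein-coding genes. These are matches of letters and say nothing of which factor binds there.

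PLXNA1, a co-receptor with neuropilins for class 3 semaphorins, read 7.55, 7.57 and 7.60 on the control arrays and 7.38, 7.46 and 7.46 on the treated arrays. The difference was -0.14 (95% interval -0.31 to 0.04). PLXND1, which binds semaphorin 3E and patterns blood vessels, read 7.06, 7.11 and 7.12 on the control arrays and 6.93, 6.96 and 7.03 on the treated arrays, a difference of -0.12 (95% interval -0.30 to 0.06). PLXNA2, a receptor of class 3 and class 6 semaphorins, read 7.67, 7.62 and 7.70 against 7.46, 7.57 and 7.61, a difference of -0.11. The intervals of all 3 include 0.

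PLXNA2 has another, dimmer probe set of its own, which gave a larger difference with a larger spread. It read 6.28, 5.88 and 5.66 on the control arrays and 5.12, 5.46 and 5.70 on the treated arrays. Treated array 3 was above control array 3, so the groups overlapped. The difference was -0.51 (95% interval -1.01 to -0.02; limma, adjusted p = 0.998), which is outside the bound of 1.5-fold that held for the brighter probe set. Leaving out control array 1 gave -0.34 and leaving out treated array 1 gave -0.36, while without treated array 3 it was -0.65. The other 2 genes with several probe sets, EPHA10 (0.01 and -0.09) and EPHA6 (-0.12 and -0.0043), had small differences on each, and those of EPHA10 differed in sign.

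The other 5 plexins had groups that overlapped and differences from -0.04 (PLXNA3) to 0.08 (PLXNA4). PLXNB1, the receptor of SEMA4D, and PLXNB3 differed by -0.0029 and 0.05, and PLXNC1, the receptor of SEMA7A, by -0.00081. The neuropilins, which also bind vascular endothelial growth factors, likewise showed no separation. NRP1 read 7.44, 7.21 and 7.25 on the control arrays and 7.22, 7.25 and 7.35 on the treated arrays, with control array 1 the highest. NRP2 measured 6.93 ± 0.13 in control and 6.86 ± 0.10 in treated cells (SD, n = 3). The difference was -0.07, with bounds of -0.32 and 0.17.

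**Figure D2:**
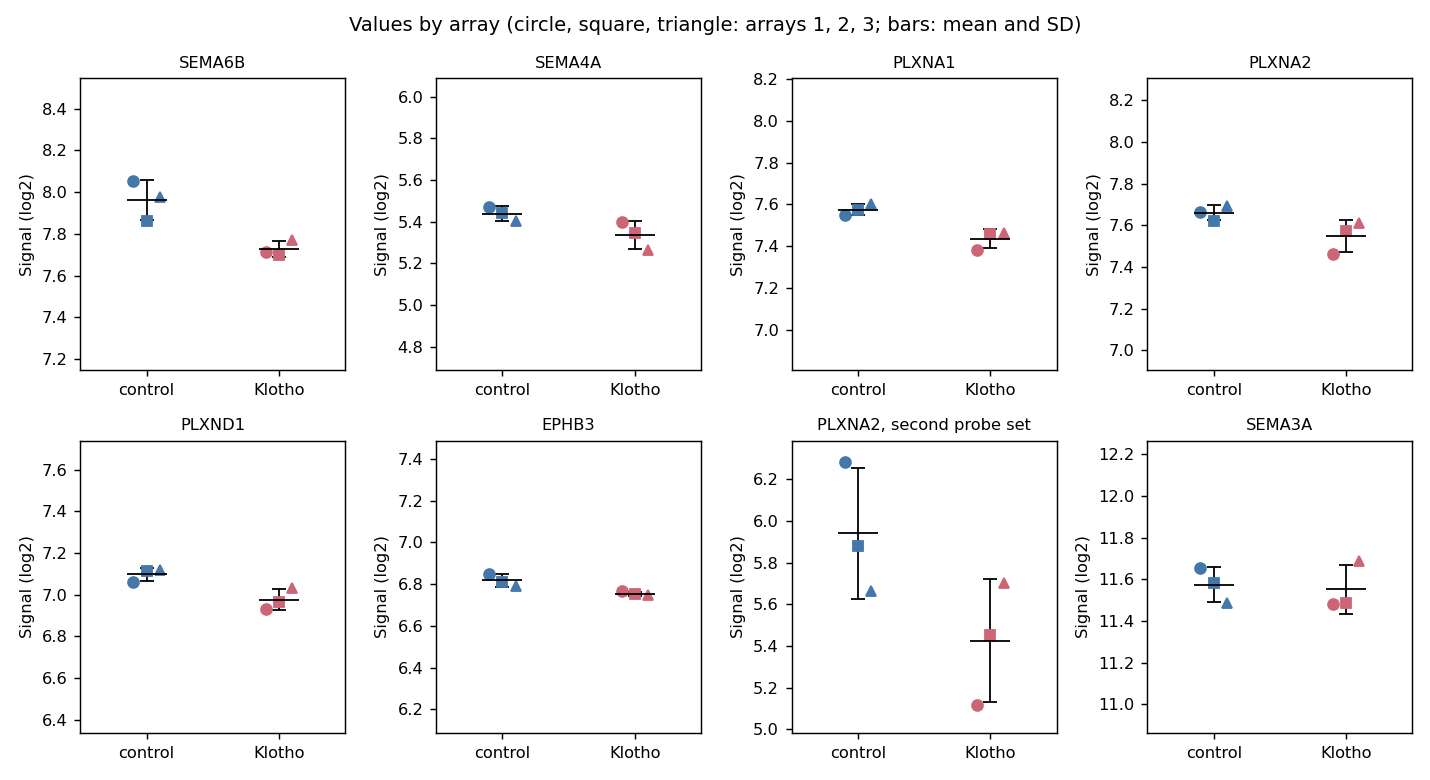
Log2 signal (vertical axis, the same span in every panel) on each control and Klotho-treated array for the 6 genes whose groups did not overlap, the other PLXNA2 probe set, and SEMA3A. Symbols are single arrays and bars are the mean and SD of 3; the separation is widest for SEMA6B among the 6, and the other PLXNA2 probe set shows the largest spread.

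Eph receptors are the largest family of receptor tyrosine kinases. Of the 9 EphA receptors 5 were lower and 4 higher, from -0.12 (EPHA6) to 0.08 (EPHA8). EPHA2, which epithelial and many tumour cells express, measured 8.16 ± 0.09 in control and 8.11 ± 0.03 in treated cells (SD, n = 3). EPHA7, which takes part in cortical patterning, read 9.31, 9.07 and 9.11 on the control arrays and 9.21, 9.17 and 9.33 on the treated arrays, and the groups overlapped through control array 1, without which all treated values were above the controls. EPHA1, EPHA3, EPHA4 and EPHA5 each differed by less than the spread between replicates, at -0.01, 0.0031, -0.0040 and -0.01. EPHA10, which is thought to lack kinase activity, differed by 0.01.

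EPHB3 was the only Eph receptor whose groups did not overlap. It read 6.85, 6.81 and 6.79 on the control arrays and 6.76, 6.75 and 6.75 on the treated arrays, a difference of -0.06 (95% interval -0.23 to 0.10). Its SD within groups, 0.02, was the smallest of the 57 genes, so that a small difference sufficed to part the groups. EPHB4, the receptor of EFNB2, measured 7.53 ± 0.05 in control and 7.50 ± 0.05 in treated cells, EPHB1 differed by -0.0024, and EPHB6, another receptor without kinase activity, by 0.08. Among the Robo receptors, ROBO1 read 9.17, 9.15 and 9.20 on the control arrays and 9.03, 9.07 and 9.23 on the treated arrays. Treated array 3 was the highest and the other treated arrays the lowest of the 6, and the difference of -0.06 had an interval from -0.26 to 0.14. ROBO3, which controls the crossing of the midline, and its chromosomal neighbour ROBO4, a receptor of endothelial cells, differed by 0.04 and -0.01.

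Treated and control values were fully separated for 6 of the 57 (10.5%), as they were for 7.89% of all genes, and all 6 were lower in treated cells, against 5.3% of all genes that were lower without overlap. They were SEMA6B, SEMA4A, PLXNA1, PLXNA2, PLXND1 and EPHB3. With each array centred on its median, 1 of these 6 still did not overlap, with quantile normalization 1 and with cyclic loess 2; SEMA6B was among them each time, and SEMA4A under cyclic loess.

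The direction of the 57 genes as a group depended on how the arrays were scaled. As deposited, 42 were lower and 15 higher in treated cells (73.7% lower), with a median difference of -0.03, while 62.6% of all genes were lower with a median of -0.03. With each array centred on its median 22 of the 57 were lower, with quantile normalization 25 and with cyclic loess 26, and the shares of all genes were then 42.7%, 46.8% and 50.3%. As deposited, 24 of the 31 ligands were lower (median -0.04) and 18 of the 26 receptors (median -0.01), and the difference between ligands and receptors was not tested.

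**Figure D3:**
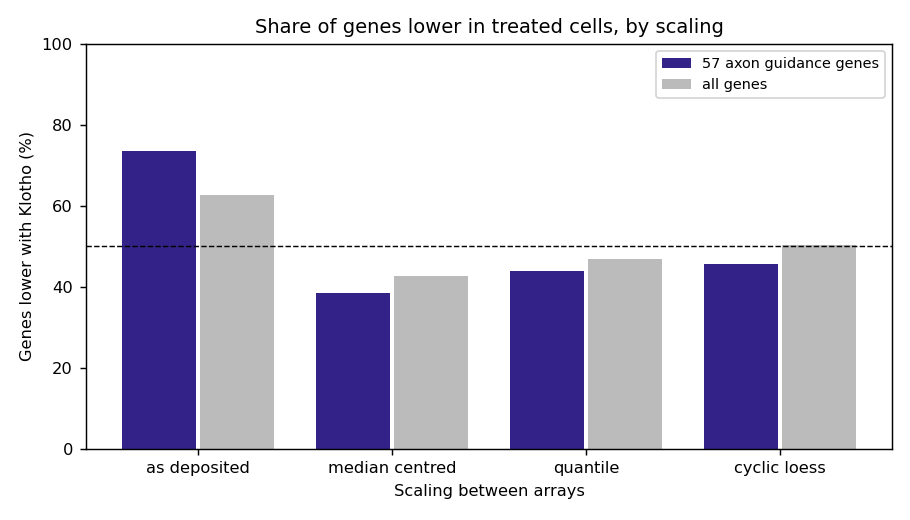
Share of genes with a lower mean in Klotho-treated than in control cells (vertical axis, percent) under 4 scalings between arrays, for the 57 axon guidance genes (dark bars) and all 14232 genes (grey bars). The dark bar is above the dashed line of equal numbers as deposited (73.7%) and below it under the other 3 scalings.

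Single arrays moved with these values. The arrays correlated at r = 0.985 to 0.991 over all probe sets. The leading principal component, which held 33.8% of the variance, set control array 1 (score 32.8) and treated array 3 (18.4) against treated arrays 1 and 2 (-26.3 and -14.9), with control arrays 2 and 3 between (-6.92 and -3.05). Treated array 3 gave the lowest of the 6 values for 18 of the 57 genes (31.6%), against 16.3% of all genes. Treated array 1 gave the highest value for 14 (24.6%), against 14.0% of all genes. Control array 1 and control array 3 were each highest for 13 (22.8%), against 33.8% and 16.9% of all genes. Without control array 1 and treated array 3 together, a choice made after seeing the data, 29 of the 57 genes were lower and 28 higher. Of all genes 56.4% were then lower. At an unadjusted p under 0.05 in limma there were 0 of the 57, against 2.90% of all genes. In that comparison of 4 arrays the groups did not overlap for 22 of the 57, against 33.1% of all genes.

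**Figure D4:**
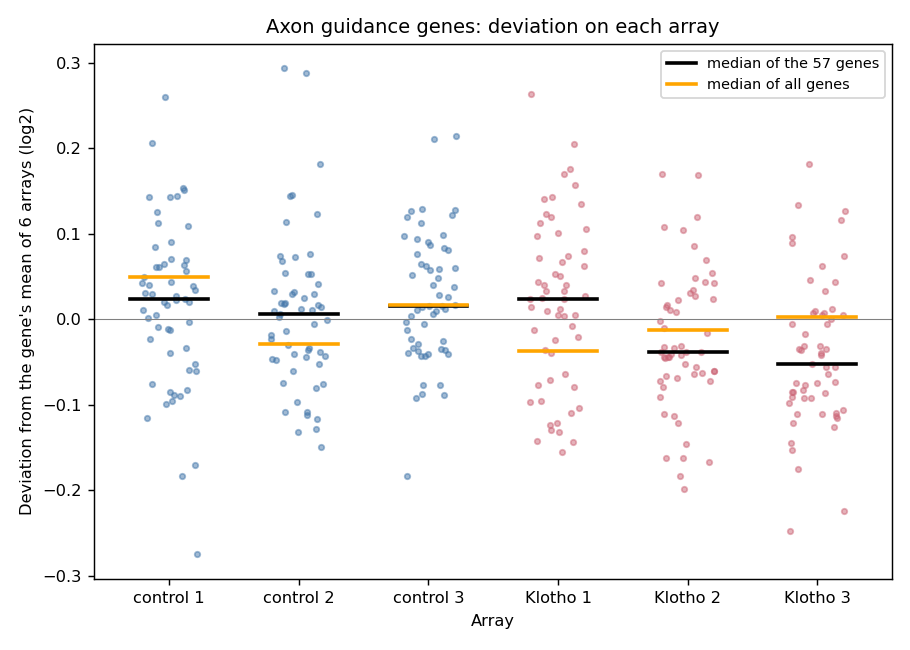
Deviation of each of the 57 genes from its own mean over the 6 arrays (vertical axis, log2) on each array (horizontal axis); points are genes, black lines the median of the 57 and orange lines the median of all 14232 genes. The black line is highest on control array 1 and treated array 1 (0.02 on each) and lowest on treated array 3 (-0.05), where the orange line is near 0.

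The other genes of the guidance pathways, namely further receptors and ligands and the cytoskeletal effectors downstream, did not pass either. Of 71 listed, 60 had a probe set of their own, and 0 of the 60 passed the adjusted threshold in limma. As deposited 46 were lower and 14 higher, with a median of -0.06, a share of 76.7% lower against 62.6% of all genes. Without probe sets below the lower quartile 68.1% of all genes were lower. Above the upper quartile of signal were 19 of the 60 and 3497 of the 14232 genes. The part of signal level in the share of lower genes was not tested. The direction of the 60 under the other scalings between arrays was not tested. At an unadjusted p under 0.05 there was 1 (1.67%), against 2.07% of all genes, which is near the background. It was RND1, which encodes a small GTPase that binds plexins and helps to collapse growth cones. RND1 read 5.16, 5.11 and 5.02 on the control arrays and 5.64, 5.46 and 5.18 on the treated arrays, all 3 above the controls. Its difference was 0.33 (95% interval 0.02 to 0.64; limma, adjusted p = 0.998), and it was 0.22 without treated array 1 and 0.45 without treated array 3. VAV2, an exchange factor that acts below Eph receptors, read 7.41, 7.27 and 7.26 on the control arrays and 6.96, 7.15 and 7.16 on the treated arrays, a difference of -0.22 (95% interval -0.45 to 0.0012). All 3 treated values of VAV2 lay below the controls. The groups did not overlap for 6 of the 60 (10%), 1 higher and 5 lower, against the 7.89% of all genes.

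Of the netrin receptors listed, DCC, NEO1, UNC5B, UNC5C and UNC5D had a probe set of their own. NEO1, neogenin, differed by -0.14 (95% interval -0.47 to 0.19) and UNC5B by -0.08 (95% interval -0.28 to 0.11). UNC5C and UNC5D differed by -0.03 and -0.02. DCC, the receptor through which netrin-1 attracts axons, measured 3.49 ± 0.03 in control and 3.50 ± 0.03 in treated cells (SD, n = 3), on a probe set below the lower quartile of signal.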

How the data were processed

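The deposited table holds log2 values made by the authors, for 22011 probe sets on 6 arrays. The submitters' processing notes name RMA, without a version; for other steps the sources used here say nothing. Per the labels, RNA was amplified from 100 ng. Groups came from the sample titles. Of the probe sets, 14432 carry 1 gene symbol, 2408 several and 5171 none; those with several named no gene. All 57 genes matched RefSeq (GRCh38.p14) by Entrez number and symbol.

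Differences were fitted over all 22011 probe sets with limma 3.58.1 in R 4.3.3 (lmFit, eBayes; 2-sided; Benjamini-Hochberg over all probe sets; threshold 0.05), and intervals are 95%. The fit was run on simulated data with independent errors drawn from its own prior variance. The simulation held no shifts shared by the probe sets of an array, so it does not show how the fit behaves with them. Precision is limited by the number of arrays. No scan dates were used.

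The genes, lists and tests were chosen with earlier results of these data known. Named genes are those at an unadjusted p under 0.05, the smallest p and brightest probe set of each family, the extreme intervals, genes with discordant probe sets and a fixed set of ligand and receptor partners, SLIT2 being without a probe set of its own; the text also gives other members. SEMA4A was singled out after its values were seen. The titles do not say whether same-numbered arrays share a batch. Their deviations from the group means correlated at -0.18, 0.06 and -0.14. These values cannot decide it, since differences between single arrays enter them too.

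Alternatives were scalings between arrays, other variance models, array weights, the replicate block, dropping dim probe sets, averaging the probe sets of a gene, a fit on 1 probe set per gene and leaving out arrays.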

Additional observations from a re-analysis of the deposited data

How the results depend on the processing

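No named gene passed the adjusted threshold under any of the 17 alternatives (smallest limma adjusted p 0.616), and 0 of the 57 genes and 0 of the 60 further pathway genes did. The count of the 57 at an unadjusted p under 0.05 (1 in the main analysis) was 2 with array quality weights (all genes 5.49%), 2 with means of all probe sets (2.07%) and 0 with the replicate block (1.26%), and 0 to 1 when leaving out each array (1.31% to 3.69%). By these deviations 1 of 6 arrays was most like its own number in the other group, which does not settle whether a number marks a shared batch. The count of further pathway genes (1) was 2 of 58 without dim probe sets (all genes 1.82%), 3 in the fit on 1 probe set per gene (3.08%), 2 with a prior that follows the mean (1.97%) and 4 with array weights (5.49%), and 0 to 2 when leaving out each array. The median difference of the 57 (-0.03) was 0.022 with median centring, 0.0086 with quantile normalization and 0.0048 with cyclic loess. Under these scalings 22, 25 and 26 were lower (all genes 42.7%, 46.8% and 50.3%). Leaving out single arrays gave -0.05 to -0.02, with 35 to 41 lower (all genes 53.0% to 68.4%). Genes whose groups did not overlap (6) numbered 4 with median centring (all genes 7.01%), 1 with quantile normalization (6.16%) and 2 with cyclic loess (6.65%), and 7 to 17 without single arrays (13.3% to 24.3%), where fewer arrays part more easily. Without control array 1 and treated array 3 together, 0 of the 57 and 3 of the 60 had an unadjusted p under 0.05 in limma (all genes 2.90%). Of the 57, 22 were without overlap (all genes 33.1%) and 29 were lower (all genes 56.4%), with a median of -0.0058. Of 25 named members, 16 kept their sign under every alternative run for them; EPHA6 and NTN4 drop out with the dim probe sets. Signal near background limits NTN4, EPHA5, EPHA6, SEMA6D and PLXNC1, and without detection calls it may limit brighter probe sets too. The cause of these shifts was not tested.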
